A study of Mus musculus with 15 samples.

Results

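The transcripts described here are 8 long noncoding RNAs measured in mouse lung: Lncpint, Platr22, Fendrr, Neat1, Malat1, Meg3, H19 and Snhg11. Their probes were found by matching the RefSeq accession printed beside each array probe to the symbol of the gene in a RefSeq table. This gave 12 of the 56605 probes on the array, which belong to 6 of the 8 genes: 2 for Lncpint, 1 for Platr22, 2 for Fendrr, 2 for Neat1, 4 for Meg3 and 1 for H19. No probe was matched to Malat1 or Snhg11, so these genes were not analysed here. Lncpint was chosen by its log2 difference from control at 2500 ppm in an earlier look at these arrays, and Platr22 by that at 500 ppm, so both of those differences are described below without a test.

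The arrays measured RNA of whole lung from mice of the outbred stock Crlj:CD1(ICR), all females aged 11 weeks. The mice had eaten, for 7 days, a diet with 0 (control), 20, 500, 2500 or 5000 ppm permethrin, an insecticide of the pyrethroid class, which keeps the sodium channels of nerve cells open. Each diet had 3 mice, and the RNA of each mouse was labelled with Cy3 and hybridised to 1 array with 1 colour. Levels are given as log2 of the processed spot signal, with the 75th percentile of each array set to 0, so a level of -1 means 50% of the signal at that percentile. A probe's level depends on how well that probe binds, and levels of different probes are therefore never set against each other.

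Long noncoding RNAs are transcripts that act without being translated, many of them in the nucleus. Lncpint is an RNA that p53 induces and that binds the Polycomb complex PRC2, which silences genes. Fendrr is made next to Foxf1, a transcription factor gene of lung mesenchyme, and is needed for the development of heart and body wall in mouse embryos. Neat1 is the scaffold of paraspeckles, nuclear bodies that hold splicing and RNA-binding proteins, and Malat1 gathers in nuclear speckles. Meg3 and H19 are imprinted RNAs made from the maternal chromosome, each beside a growth gene made from the paternal one (Dlk1 and Igf2), and both are abundant in the embryo and low in most adult tissues. Platr22 belongs to a family of transcripts named for their tie to pluripotency in mouse embryonic stem cells. Snhg11 is a host of small nucleolar RNAs.

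The promoters of Lncpint, Platr22 and Fendrr are printed here because these are the 3 genes whose step or peak over the doses is described first below. Each runs 250 bases before to 50 bases after a RefSeq start, is taken from RefSeq on assembly GRCm38.p6, and is written 5′ to 3′ on the strand of the gene. Capitals mark matches to 3 motifs searched on both strands: TGACNNNGC, the core of the antioxidant response element; GCGTG, the core of the xenobiotic response element; and the E-box CACGTG.
Lncpint (chr6:31218425-31218724, minus strand): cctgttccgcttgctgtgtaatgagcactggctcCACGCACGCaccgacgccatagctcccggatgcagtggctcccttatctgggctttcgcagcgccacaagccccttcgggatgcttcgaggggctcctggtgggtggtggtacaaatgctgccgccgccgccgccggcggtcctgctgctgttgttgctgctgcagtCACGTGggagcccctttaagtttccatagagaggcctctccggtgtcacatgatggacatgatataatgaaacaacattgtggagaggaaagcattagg
Platr22 (chr1:136695961-136696260, plus strand): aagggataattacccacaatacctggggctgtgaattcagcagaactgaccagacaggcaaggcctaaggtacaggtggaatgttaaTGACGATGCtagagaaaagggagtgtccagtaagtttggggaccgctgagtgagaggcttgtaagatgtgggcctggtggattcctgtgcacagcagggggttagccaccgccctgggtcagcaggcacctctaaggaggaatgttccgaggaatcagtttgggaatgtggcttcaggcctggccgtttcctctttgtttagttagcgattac
Fendrr (chr8:121083061-121083360, minus strand): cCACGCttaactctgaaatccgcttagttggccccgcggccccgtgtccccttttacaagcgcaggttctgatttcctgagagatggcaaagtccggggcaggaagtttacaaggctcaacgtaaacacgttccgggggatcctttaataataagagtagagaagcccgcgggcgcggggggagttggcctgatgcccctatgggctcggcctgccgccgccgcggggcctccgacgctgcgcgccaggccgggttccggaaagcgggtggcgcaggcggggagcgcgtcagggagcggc

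The window of Platr22 held 1 match to TGACNNNGC, starting at base 88. The same motif was found in 12.4% of the 32851 mouse promoters of that table. The window of Lncpint held 2 matches to GCGTG, read as CACGC on the printed strand, which start at bases 35 and 39 and share 1 base, and 1 match to CACGTG at base 202. Fendrr had 1 match to GCGTG, at base 2. GCGTG occurred in 32.4% of all promoters and CACGTG in 7.15%. A TATA box (TATAAA, present in 13.6% of promoters) was searched as well and was found in none of the 3 windows, but in the upstream one of the 2 windows listed for Meg3. These matches describe letters in a window and are no evidence of binding.

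Between 70.8% and 87.0% of the probes of an array were well above background, and no spot was saturated. Markers of the lung's epithelium, endothelium, mesenchyme, smooth muscle and resident immune cells were detected, but so were markers of adipose tissue, heart, liver, neurons and skeletal muscle. The summed level of the 4 adipose markers varied between -0.46 and 6.88 over the mice. Of 4 thymus markers, Dntt was well above background on all 15 arrays, and Rag1, Rag2 and Ptcra did not pass the filter on dim probes. The arrays lay on 2 slides: slide 1 held control, 20 ppm and 500 ppm mice 1 and 2, and slide 2 held 500 ppm mouse 3 and all mice at 2500 and 5000 ppm. At 2500 and 5000 ppm against control, slide and dose are linked only through the 500 ppm mice, and a slide term rests on 500 ppm mouse 3. In a principal component analysis 4 arrays stood apart, 500 ppm mouse 3 and 2500 ppm mouse 3 on the first component (34.6% of the variance) and control mouse 1 and 20 ppm mouse 1 on the second (22.3%). In whole lung, fewer cells that make a transcript and less of it per cell cannot be told apart.

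All 12 probes passed the filter, and 11 of them were well above background on all 15 arrays. The exception was Meg3 A_55_P2033407, above background on 9 arrays and kept only through the 500 ppm mice. None of the 12 probes was called in limma after Benjamini-Hochberg adjustment over the 43154 probes tested, at any dose, at 5000 against 2500 ppm, on the trend over dose ranks or in the F test over the 5 diets. The same fit called 0% of all probes at 20, 500 and 2500 ppm, 0.0324% at 5000 ppm, 0% at 5000 against 2500 ppm, 0.118% on the trend and 0.0348% in the F test. At an unadjusted p under 0.05 it held 1.39%, 2.72%, 7.78% and 4.69% of all probes at 20, 500, 2500 and 5000 ppm, and 8.63% on the trend. Of the 12 probes, 0 had an unadjusted p under 0.05 at 20 ppm, 2 at 500 ppm, 5 at 2500 ppm, 1 at 5000 ppm and 3 on the trend. The gene choice bears on the 500 ppm, 2500 ppm and trend counts. All 3 probes on the trend belong to the chosen genes, Lncpint and Platr22.

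Lncpint had the largest log2 difference from control among the 12 probes, at 1 dose and on 1 of its probes. The probe for transcript NR_110469 (A_55_P1984259) read 1.11, 1.55 and 1.58 in control lungs, 1.42, 1.53 and 1.27 at 20 ppm, 1.53, 1.75 and 1.61 at 500 ppm, 2.52, 2.34 and 2.47 at 2500 ppm, and 1.78, 1.5 and 1.40 at 5000 ppm. The 3 mice at 2500 ppm lay above all 12 other mice. The mean was 2.44 ± 0.09 at 2500 ppm, against 1.41 ± 0.26 in control lungs (SD, n = 3 each), a log2 difference of 1.03 ± 0.16 (SE). This is the contrast for which the gene was chosen. At 5000 ppm the same probe overlapped the controls, with a log2 difference of 0.15 ± 0.16 (SE) from control (limma adjusted p = 0.979).

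The level did not follow the dose: 5000 ppm lay 0.88 ± 0.16 (SE) log2 units below 2500 ppm with no overlap, which again involves the mice that chose the gene. Both doses lay on slide 2, so the slide does not separate them. Without the 4 arrays that stood apart, the difference of A_55_P1984259 from control was 0.86 at 2500 ppm and -0.00 at 5000 ppm. Control mouse 1 was the lowest of the 15 on this probe, and without it alone the difference at 5000 ppm was -0.00.

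The probe for the other Lncpint transcript, NR_110471 (A_55_P1984253), did not have this peak. It read -1.22, -1.05 and -1.15 in control lungs, -1.23, -1.11 and -1.09 at 20 ppm, -0.99, -0.80 and -0.92 at 500 ppm, -0.88, -0.81 and -0.81 at 2500 ppm, and -0.84, -0.85 and -0.98 at 5000 ppm. Every mouse at 500, 2500 and 5000 ppm lay above every control and every mouse at 20 ppm, and the 3 upper doses overlapped one another. The log2 differences from control were 0.24, 0.31 and 0.25 (SE 0.12 each) at 500, 2500 and 5000 ppm, and -0.00 at 20 ppm. The step was small, but the spread between mice of a diet was smaller for this probe than for all but 0.13% of the probes tested. On the trend over dose ranks its adjusted p was 0.429.

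The 2 Lncpint probes thus parted at 1 dose. The gap between A_55_P1984259 and A_55_P1984253, relative to its mean in control lungs, was -0.00 ± 0.17 at 20 ppm, -0.02 ± 0.02 at 500 ppm, 0.72 ± 0.12 at 2500 ppm and -0.11 ± 0.15 at 5000 ppm (SD, n = 3 each). The lowest mouse at 2500 ppm had 0.589, and the highest of all other mice had 0.175, a control mouse. The probes report different RefSeq transcripts of 1 gene. Over the 15 arrays their levels had r = 0.69 (Spearman rho 0.70, permutation p = 0.0038, adjusted 0.0139 over 11 pairs of probes of 1 gene). It was 0.71 among the 8 arrays of slide 1, 0.63 among the 7 of slide 2, and 0.63 without the 2 arrays farthest from the median. With each diet's mean taken off, r was 0.53. The 15 arrays include the 2500 ppm mice that chose the gene, so these p values support nothing.

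Platr22 showed a step rather than a peak. Its probe A_55_P2508519 (NR_037986) read -0.72, -0.52 and -0.49 in control lungs, -0.42, -0.45 and -0.50 at 20 ppm, 0.08, -0.13 and 0.05 at 500 ppm, 0.09, -0.04 and -0.10 at 2500 ppm, and 0.06, -0.10 and 0.06 at 5000 ppm. All 9 mice at 500 ppm or more lay above all 6 mice at 20 ppm or control, and the 3 upper doses could not be ordered. The log2 difference from control was 0.58 at 500 ppm, the contrast that chose the gene.

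At the doses that did not choose Platr22 the difference from control had the same size, though these contrasts use the same 3 control arrays. It was 0.56 ± 0.13 (SE) at 2500 ppm (limma adjusted p = 0.212) and 0.59 ± 0.13 at 5000 ppm (limma adjusted p = 0.333), and neither passed the threshold. At 20 ppm it was 0.12 ± 0.13. The trend over the 5 dose ranks was 0.16 ± 0.03 per rank for Platr22 (adjusted p = 0.0613). This was the smallest adjusted p of the set, from a fit that includes the 500 ppm mice, and 8.63% of all probes had an unadjusted p under 0.05 on the trend.

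Among the arrays of slide 1 alone, the 2 mice at 500 ppm lay 0.55 log2 units above the 3 controls on Platr22, which again describes mice that chose the gene. The scale bears on its size at 500 ppm. The median of all probes tested lay 0.11 above control at that dose. With each array's median as the scale, the difference of Platr22 was 0.35, that of Lncpint A_55_P1984253 was 0.01 and that of Lncpint A_55_P1984259 was -0.01. These values on the median scale rest largely on 500 ppm mouse 3, an array that stood apart. In the authors' log2 values, the median of that array was -1.94, against -2.91 and -2.94 in the other mice at 500 ppm. The control medians were -2.74, -2.84 and -2.90. At 2500 and 5000 ppm the median of all probes lay 0.03 and 0.05 above control.

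**Figure D1:**
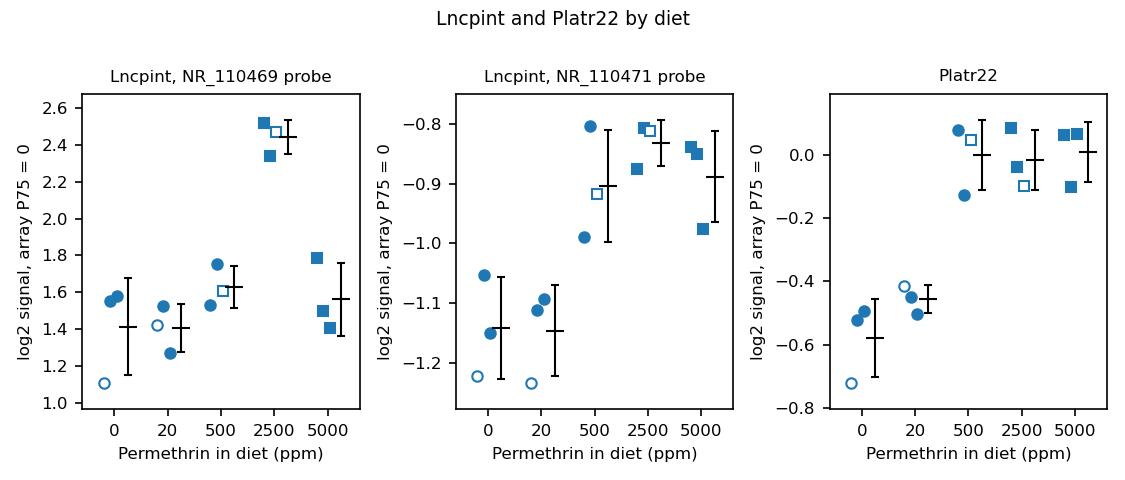
Levels of the 2 Lncpint probes and of Platr22 in each mouse (log2 signal with the array's 75th percentile at 0, vertical axis) by permethrin in the diet (ppm, horizontal axis). Circles are arrays of slide 1, squares arrays of slide 2, open symbols the 4 arrays that stood apart, and bars the mean ± SD of 3 mice. The NR_110469 probe of Lncpint peaks at 2500 ppm with 2.34 to 2.52, while the NR_110471 probe and Platr22 sit higher at 500 ppm and above than at 20 ppm and in control.

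Fendrr gave a pattern like that of the first Lncpint probe, but only in 1 of its 2 probes and with more spread. The probe for NR_130109 (A_55_P2923301) read 4.41, 4.96 and 4.91 in control lungs, 4.77, 5.39 and 5.15 at 20 ppm, 4.95, 4.91 and 5.02 at 500 ppm, 5.86, 5.86 and 5.12 at 2500 ppm, and 4.95, 4.79 and 5.09 at 5000 ppm. The mice at 2500 ppm lay above all controls, above all mice at 500 ppm and above all mice at 5000 ppm, but mouse 3 of them, 1 of the arrays that stood apart, lay below 2 mice at 20 ppm. The log2 difference of A_55_P2923301 was 0.85 ± 0.23 (SE) at 2500 ppm (limma adjusted p = 0.315) and 0.18 ± 0.23 at 5000 ppm. At 5000 against 2500 ppm it was -0.67 ± 0.23 (limma adjusted p = 0.990).

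Leaving out single mice moved this Fendrr value within 0.68 (without control mouse 1) and 1.10 (without 2500 ppm mouse 3). Without all 4 arrays that stood apart, A_55_P2923301 was 0.92 above control at 2500 ppm (limma adjusted p = 0.0349) and -0.91 at 5000 against 2500 ppm (limma adjusted p = 0.0262), both then past the threshold. That fit holds only 2 controls and 2 mice at 2500 ppm. It leaves out the lowest mouse at 2500 ppm and the lowest control on this probe, and arrays were picked on these same data. The share of all probes called in that fit is not given here, so these calls cannot be read as a result about Fendrr. At 5000 ppm the difference of A_55_P2923301 from control was then 0.01.

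The second Fendrr probe, for NR_045471 (A_66_P102567), read 0.12, -1.43 and -1.65 in control lungs, 0.22, -0.79 and -1.28 at 20 ppm, -1.41, -1.91 and -1.29 at 500 ppm, -0.82, -1.0 and -1.14 at 2500 ppm, and -1.64, -1.97 and -1.24 at 5000 ppm. Control mouse 1 and 20 ppm mouse 1, both among the arrays that stood apart, were its only values above 0. The log2 difference of A_66_P102567 at 2500 ppm was -0.00 ± 0.45 (SE) with control mouse 1 and 0.55 without it, so its direction there rests on 1 array. Like the other Fendrr probe, it was higher in every mouse at 2500 ppm than in any mouse at 5000 ppm. The 2 Fendrr probes did not move together over the 15 arrays (r = -0.06, rho 0.27, permutation p = 0.822; -0.47 within slide 1, 0.83 within slide 2 and -0.34 without the 2 arrays farthest from the median).

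Foxf1, the neighbour of Fendrr and 1 of the mesenchyme markers, did not share the peak. Its probe read 5.80, 5.60 and 5.39 at 2500 ppm, against 5.59, 6.02 and 6.10 in control lungs, a log2 difference of -0.31 ± 0.19 (SE; limma adjusted p = 0.778). The summed level of the 7 lung mesenchyme markers ran from 6.93 to 7.05 at 2500 ppm, against 6.70 to 7.18 in control lungs. That of the 4 smooth muscle markers ran from 7.15 to 8.28 at 2500 ppm and from 7.05 to 7.54 at 5000 ppm, against 6.34 to 7.12 in control lungs. Its highest and lowest values here, 8.28 and 6.34, are those of 2500 ppm mouse 3 and control mouse 1, and without the arrays that stood apart it ran from 7.15 to 7.44 at 2500 ppm, against 6.85 to 7.12 in control lungs. The part of these cells in the Fendrr values was not tested.

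Neat1 was read by 2 probes that match the same accession, NR_003513. A_65_P09473 read 0.23, -1.23 and -1.36 in control lungs, 0.36, -0.51 and -0.45 at 20 ppm, -0.81, -1.09 and -1.02 at 500 ppm, -0.12, -0.18 and -0.35 at 2500 ppm, and -0.54, -0.94 and -0.63 at 5000 ppm. The mice at 2500 ppm lay above all mice at 500 and 5000 ppm, while control mouse 1 was above them all and the other 2 controls were the lowest of the 15 mice. The log2 difference of A_65_P09473 at 2500 ppm was 0.57 ± 0.36 (SE; limma adjusted p = 0.782), or 1.08 without control mouse 1. Without the 4 arrays that stood apart it was 1.14 (limma adjusted p = 0.0267), with only 2 controls and 2 mice at 2500 ppm left and the highest control taken out. The share of all probes called in that fit is not given here, so this call cannot be read as a result about Neat1.

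The other Neat1 probe, A_55_P2740113, read -1.14, -1.49 and -1.69 in control lungs, -1.16, -1.39 and -1.36 at 20 ppm, -1.75, -1.68 and -0.85 at 500 ppm, -1.04, -1.51 and -1.04 at 2500 ppm, and -1.47, -1.54 and -1.36 at 5000 ppm. Its groups overlapped at every dose, with log2 differences from control between -0.02 and 0.24 (SE 0.24). Its highest value, in 500 ppm mouse 3, was again on an array that stood apart.

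Another probe, A_30_P01029720, carries the name NEAT1 in the array's own annotation but no RefSeq accession, so it falls outside the rule and is given beside the others only. It read 5.09, 4.58 and 4.67 in control lungs, 5.39, 5.28 and 5.09 at 20 ppm, 4.85, 4.75 and 4.64 at 500 ppm, 5.79, 5.50 and 5.42 at 2500 ppm, and 5.32, 5.0 and 5.04 at 5000 ppm. The mice at 2500 ppm lay above all others on this probe, and the log2 difference of A_30_P01029720 from control was 0.79 ± 0.17 (SE; limma adjusted p = 0.205). Its level and that of A_65_P09473 had r = 0.78 over the 15 arrays (rho 0.86, permutation p = 0.00072, adjusted 0.00792 over the 11 pairs of probes of 1 gene), with 0.87 within slide 1, 0.95 within slide 2 and 0.76 without the 2 arrays farthest from the median. For A_55_P2740113, r was 0.50 with A_65_P09473 (adjusted permutation p = 0.119) and 0.36 with A_30_P01029720 (adjusted permutation p = 0.291). These were 0.88 and 0.73 within slide 1, and -0.06 and -0.13 within slide 2.

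**Figure D2:**
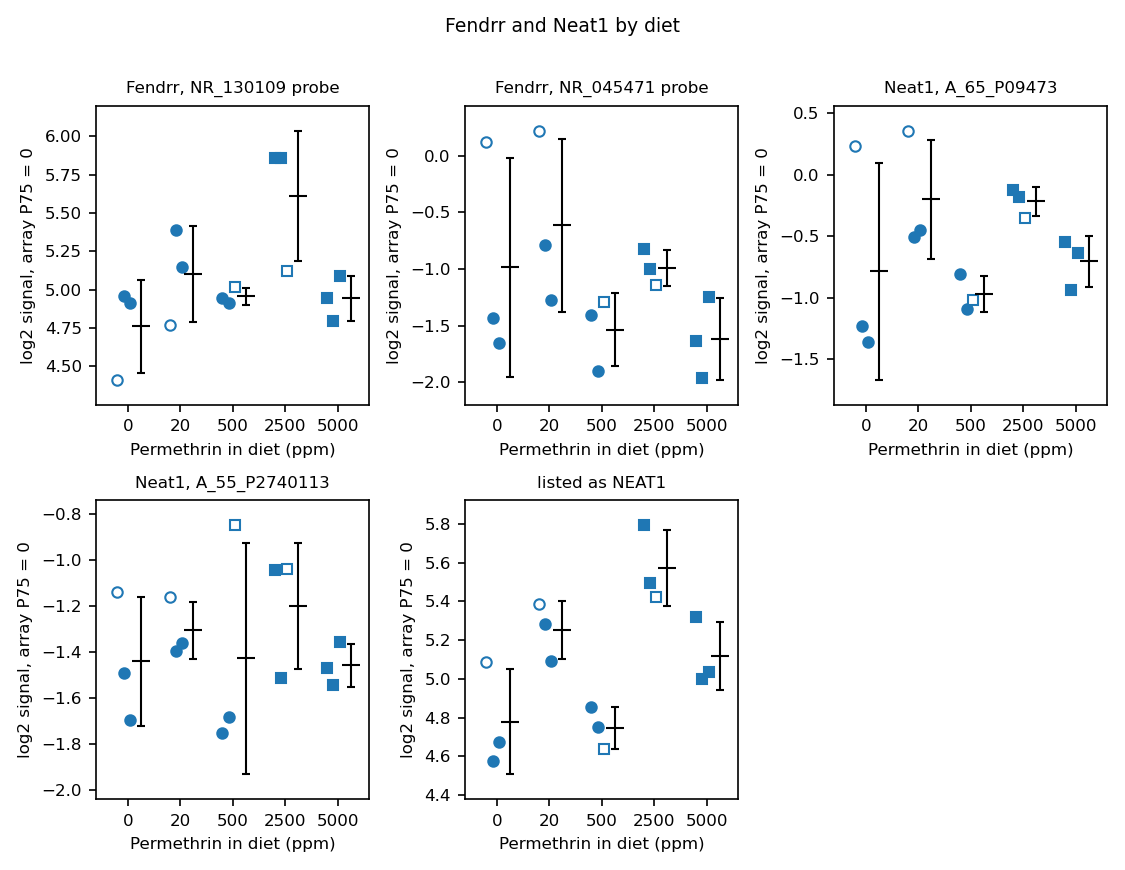
Levels of 2 Fendrr probes, 2 Neat1 probes and the probe that the array lists as NEAT1 in each mouse (log2 signal with the array's 75th percentile at 0, vertical axis) by permethrin in the diet (ppm, horizontal axis). Circles are arrays of slide 1, squares arrays of slide 2, open symbols the 4 arrays that stood apart, and bars the mean ± SD of 3 mice. The open circle of control mouse 1 lies at 0.12 on Fendrr A_66_P102567 and at 0.23 on Neat1 A_65_P09473, far above the other 2 controls.

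Meg3 had 4 probes, on 3 of which every treated group overlapped the controls. A_51_P455997 (NR_027652) read -0.35, -0.62 and -0.50 in control lungs, -0.54, -0.43 and -0.84 at 20 ppm, -0.76, 0.10 and -0.49 at 500 ppm, 0.03, -0.38 and 0.20 at 2500 ppm, and -0.84, -0.30 and -0.61 at 5000 ppm. The 3 highest values, in 500 ppm mouse 2 and 2500 ppm mice 1 and 3, came from mice of 2 diets. The log2 difference of A_51_P455997 was 0.44 ± 0.24 (SE) at 2500 ppm (limma adjusted p = 0.720) and -0.09 ± 0.24 at 5000 ppm.

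A_55_P2736010, for Meg3 transcript NR_003633, read -3.28, -3.48 and -2.95 in control lungs, -3.0, -3.16 and -3.42 at 20 ppm, -3.06, -2.0 and -1.79 at 500 ppm, -2.14, -2.72 and -1.93 at 2500 ppm, and -3.06, -2.44 and -3.35 at 5000 ppm. The 2500 ppm mice lay above all controls here, and at 500 ppm 2 of 3 mice did. The log2 difference of A_55_P2736010 was 0.97 ± 0.34 (SE) at 2500 ppm (limma adjusted p = 0.440) and 0.28 ± 0.34 at 5000 ppm. When the slide entered the fit as a block these became 0.23 and -0.45, and within slide 1 the 2 mice at 500 ppm lay 0.71 above control.

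Over the 15 arrays A_51_P455997 and A_55_P2736010 had r = 0.74 (rho 0.68, permutation p = 0.00162, adjusted 0.00891), with 0.82 within slide 1, 0.68 within slide 2 and 0.58 without the 2 arrays farthest from the median. The other 2 Meg3 probes showed no step at any dose, and A_55_P2033407 was not well above background on 6 of the 15 arrays. A_65_P01584 ran from -5.21 to -2.94 and A_55_P2033407 from -5.56 to -2.94 over the 15 mice, and their largest log2 differences from control were 0.63 ± 0.41 (SE) at 2500 ppm for A_65_P01584 and 0.48 ± 0.61 at 500 ppm for A_55_P2033407. Each rests on 1 array that stood apart: without 2500 ppm mouse 3 that of A_65_P01584 was 0.15, and without 500 ppm mouse 3 that of A_55_P2033407 was -0.10. Both had overlapping groups at every dose. Apart from the pair given first, pairs of Meg3 probes had r from 0.12 to 0.55 (adjusted permutation p from 0.0825 to 0.734).

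H19 was the 1 gene of the set whose mean lay below control at all 4 doses, but within a wide spread. Its probe A_55_P2903297 (NR_130973) read -0.66, 0.65 and 0.05 in control lungs, -0.59, -0.10 and -1.75 at 20 ppm, -0.86, 0.06 and -0.78 at 500 ppm, -0.60, -0.81 and 0.11 at 2500 ppm, and 0.06, -0.59 and -0.50 at 5000 ppm. Every group overlapped the controls, whose own values ranged over more than 1 log2 unit. The log2 differences of H19 were -0.83, -0.54, -0.44 and -0.35 at 20, 500, 2500 and 5000 ppm (SE 0.45 each). Without 20 ppm mouse 3, the lowest of the 15, the H19 difference at 20 ppm was -0.36, so the doses have no settled order.

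H19 is also the host of miR-675, whose 2 mature forms are shown because they are what H19 is processed into. They were not measured here. Both are written 5′ to 3′ from RefSeq (GRCm38.p6, minus strand, chr7:142577112-142577133 for the 5p form and chr7:142577078-142577099 for the 3p form), with the seed in capitals.
mmu-miR-675-5p: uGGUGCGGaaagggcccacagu
mmu-miR-675-3p: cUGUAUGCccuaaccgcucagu

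A second probe, A_30_P01026972, is listed under the name H19 without a RefSeq accession. It was well above background on only 3 arrays, 2 of control and 1 of 20 ppm mice, and did not pass the filter.

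**Figure D3:**
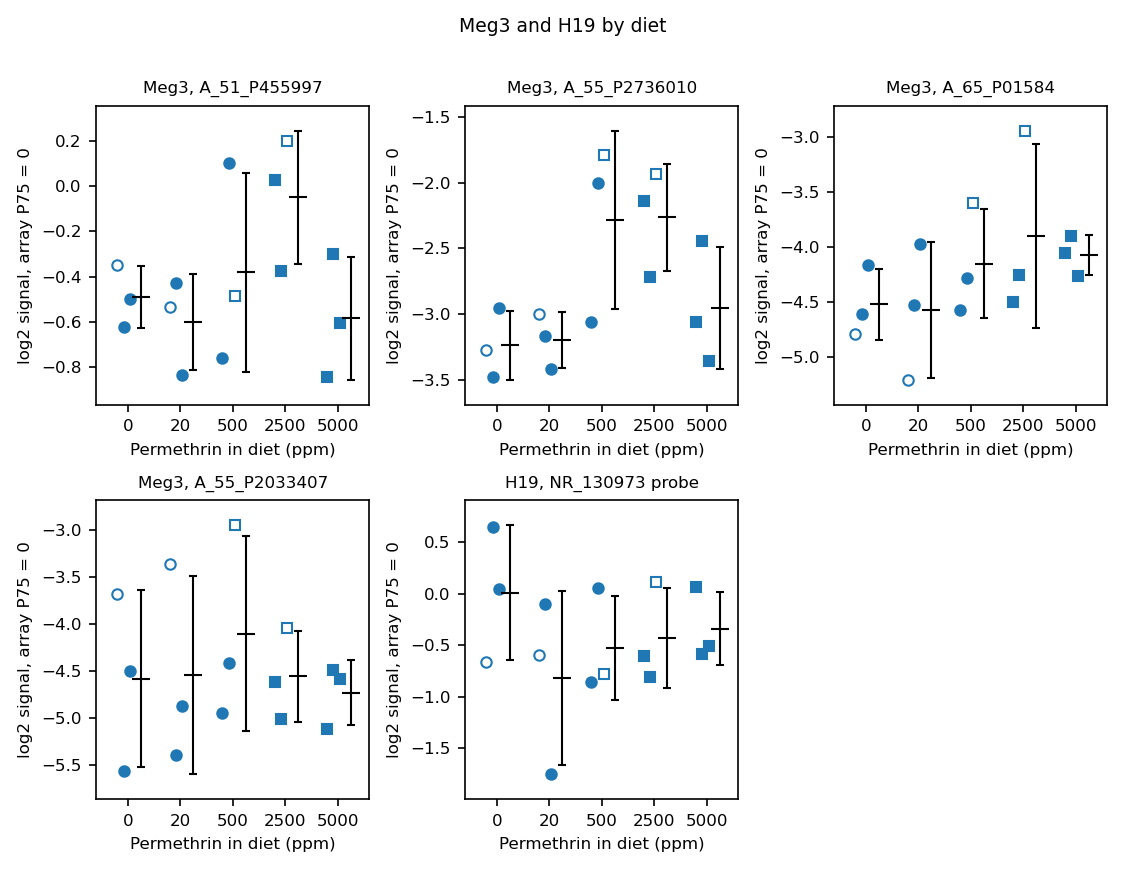
Levels of the 4 Meg3 probes and the H19 probe in each mouse (log2 signal with the array's 75th percentile at 0, vertical axis) by permethrin in the diet (ppm, horizontal axis). Circles are arrays of slide 1, squares arrays of slide 2, open symbols the 4 arrays that stood apart, and bars the mean ± SD of 3 mice. Of these 5 probes only Meg3 A_55_P2736010 at 2500 ppm, with -2.72 to -1.93, lies clear of the controls.

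Counted over the set, 0 of 12 probes at 20 ppm had treated mice that lay clear of the controls, against 5.63% of all probes tested. At 500 ppm it was 2 of 12, both higher (Lncpint A_55_P1984253 and Platr22), where 4.40% of all probes were clear of control and higher. At 2500 ppm it was 5 of 12, all higher (both Lncpint probes, Fendrr A_55_P2923301, Platr22 and Meg3 A_55_P2736010), where 7.94% of all probes were. At 5000 ppm it was 2 of 12, again Lncpint A_55_P1984253 and Platr22, where 11.9% of all probes were. The 500 and 2500 ppm counts include the contrasts for which Platr22 and Lncpint were chosen, and the comparisons share their control mice.

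At 5000 against 2500 ppm, 4 of 12 probes were lower with no overlap (Lncpint A_55_P1984259, both Fendrr probes and Neat1 A_65_P09473), against 6.50% of all probes. None was higher with no overlap, against 8.12% of all probes. Lncpint was chosen by its values in these 2500 ppm mice, so the gene choice bears on both counts. Both groups lay on slide 2. Probes of 1 gene share that gene's transcripts, so the 12 probes are not 12 independent readings.

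**Figure D4:**
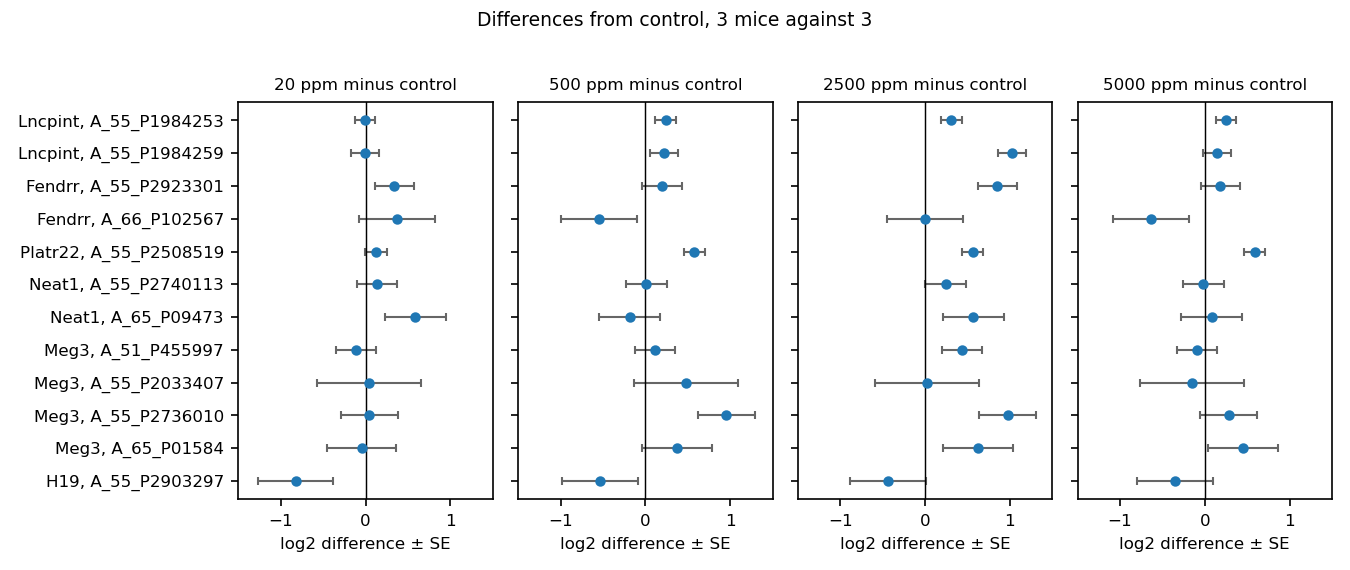
Log2 difference from control with its SE (horizontal axis) for the 12 probes (rows) at 20, 500, 2500 and 5000 ppm (panels, left to right), 3 mice against 3. The differences of Lncpint A_55_P1984259 (1.03) and Fendrr A_55_P2923301 (0.85) stand out at 2500 ppm and are 0.15 and 0.18 at 5000 ppm, while Platr22 stays between 0.56 and 0.59 at the 3 upper doses.

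Genes that lie next to these RNAs and had a probe that passed the filter were not called at any dose, while the probe of Klf14, on 1 side of Lncpint, did not pass it. For Platr22 the neighbours are Zfp281 and Nr5a2, a transcription repressor and a nuclear receptor, and their log2 differences at 5000 ppm were 0.00 ± 0.17 for Zfp281 and 0.52 ± 0.39 (SE) for Nr5a2. For Lncpint, Mkln1, a protein of a ubiquitin ligase complex, stood at -0.58 ± 0.41 at 2500 ppm. That Mkln1 difference came from control mouse 1, at -0.35, while the other controls had -1.69 and -1.73 and the mice at 2500 ppm -1.98, -1.74 and -1.78. Without control mouse 1 the Mkln1 difference was -0.12. At 2500 ppm Dlk1, beside Meg3, stood at -0.22 ± 0.50, and at -1.0 without the 4 arrays that stood apart. Igf2, beside H19, stood at -0.19 ± 0.65 at that dose, and at 0.58 without control mouse 1, so its direction rests on that array. Igf2 was near background, and not well above it in control mouse 3 and 2500 ppm mouse 2. At 2500 ppm it read -4.72, -5.05 and -3.40, the last in mouse 3, an array that stood apart.

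Across the 15 arrays, 8 pairs of a member and a partner gene were set against each other. In 7 of them, Meg3 with Rian, Mirg and Dlk1, H19 with Igf2 and Meg3, Fendrr with Foxf1 and Lncpint with Cdkn1a, r lay between -0.25 and 0.31 with adjusted permutation p values from 0.498 to 0.919, and rho between -0.16 and 0.29 (adjusted p from 0.765 to 0.974). Within slide 1 r ran from -0.47 to 0.69, within slide 2 from -0.17 to 0.30, and without the 2 arrays farthest from the median from -0.46 to 0.29. The values 0.69 and -0.17 both belong to Fendrr with Foxf1. For that pair r was -0.05 over all 15 arrays and 0.69 with each diet's mean taken off. For Lncpint A_55_P1984259 with Mkln1 r was -0.48 (permutation p = 0.0373, adjusted 0.298) and rho -0.70 (permutation p = 0.0046, adjusted 0.0368). It was the only pair past 0.05 after adjustment, and only by rho. The 15 arrays include the mice whose values chose Lncpint, so the p values of its pairs, by r or by rho, support nothing. With Mkln1, r was -0.61 within slide 1, -0.39 within slide 2 and -0.47 without the 2 arrays farthest from the median of Lncpint. On Mkln1, control mouse 1 and 20 ppm mouse 1 lay apart from all other mice, so the pooled r rests in part on 2 arrays that stood apart.

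The genes whose levels followed each RNA most closely over the 15 arrays, among 17038 named genes, are given as a description, since picking the highest of many leaves no test and the arrays share their slide and diet. Lncpint A_55_P1984259 was followed by Heatr3 (r = 0.94), Zfp27 (0.94) and Mtif2 (0.93), and Fendrr A_55_P2923301 by Atg9a (0.93), Ankrd16 (0.93) and Slc2a4rg-ps (0.91). Platr22 was followed by Ahi1 (0.89), Dhx37 (0.87) and Dbt (0.86). Neat1 A_65_P09473 was followed by Srsf5 (0.86), a splicing factor, and by Ppme1 and Dst (0.84 each). For Meg3 A_51_P455997 the closest were Olfml2b (0.87), Cdhr3 (0.83) and Dnah10 (0.82), and for H19 they were Cep55 (0.76), Tsacc (0.74) and Pramel21 (0.72).

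Other long noncoding RNAs of the array, with hosts of small nucleolar RNAs among them, set the frame for these values. Of 62 listed, 45 had a probe that passed the filter, none was called at any dose, and 7 had an unadjusted p under 0.05 at 2500 ppm and 6 at 5000 ppm, where 7.78% and 4.69% of all probes had one. Their median log2 difference was 0.17 at 2500 ppm (35 of 45 above 0), where the median of all probes was 0.03, and 0.16 at 5000 ppm (31 of 45), where it was 0.05. Carmn, an RNA of cardiovascular and smooth muscle cells, read 2.39, 2.25 and 2.58 at 2500 ppm and 2.06, 2.35 and 2.13 at 5000 ppm, against 0.44, 1.5 and 1.48 in control lungs. The log2 differences of Carmn were 1.27 and 1.04 (limma adjusted p = 0.283 and 0.846). Both are larger with control mouse 1, an array that stood apart and read 0.44, than they would be without it. The smooth muscle markers given above stood higher beside Carmn, with all 4 log2 differences above 0 at 2500 ppm and 3 of 4 at 5000 ppm, and none called. Their part in the Carmn values was not tested. Unlike the first Lncpint probe, Carmn lay clear of the controls at 5000 ppm too.

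Among 18 hosts of small nucleolar RNAs, the class of Snhg11, 17 passed the filter and none was called. Their median log2 difference was 0.31 at 2500 ppm and 0.26 at 5000 ppm, with 14 of 17 above 0 and 4 with an unadjusted p under 0.05 at each, beside medians of 0.03 and 0.05 over all probes and 7.78% and 4.69% of all probes under that p. Snhg20 read 3.08, 3.07 and 3.11 at 2500 ppm and 2.94, 2.97 and 3.0 at 5000 ppm, against 2.21, 2.65 and 2.51 in control lungs, and both doses lay clear of the controls. Its log2 differences were 0.63 and 0.52 (limma adjusted p = 0.310 and 0.908). The longer list of long noncoding RNAs above also names many of these hosts, Snhg20 among them. The lists overlap, so their shifts are not separate readings.

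Of the other Platr RNAs, 5 of 11 passed the filter, with a median log2 difference of 0.06 at 2500 ppm and -0.01 at 5000 ppm. Platr9 stood lower than control at both doses, with -3.50, -3.21 and -3.27 at 2500 ppm and -3.01, -3.29 and -3.57 at 5000 ppm, against -2.71, -2.71 and -2.77 in control lungs. Its log2 differences of -0.60 and -0.57 have the sign opposite to those of Platr22, and neither was called (limma adjusted p = 0.449 and 0.979).

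In 2 further lists, targets of p53 and proteins of nuclear speckles and paraspeckles, no gene was called. The 20 targets of p53, which induces Lncpint, had a median log2 difference of 0.10 at 2500 ppm and of 0.24 at 5000 ppm, with 15 of 20 above 0 at each. The medians of all probes were 0.03 and 0.05 at these doses. Any tie of these targets to the Lncpint values was not tested. Of the 20 targets, 0 at 2500 ppm and 2 at 5000 ppm had an unadjusted p under 0.05, where 7.78% and 4.69% of all probes had one. Gdf15, a secreted stress factor among the targets, read 1.29, 0.73 and 1.91 at 5000 ppm, against 0.20, 0.68 and 0.15 in control lungs, a log2 difference of 0.97 (limma adjusted p = 0.764). The 21 proteins of nuclear speckles and paraspeckles, partners of Malat1 and Neat1, had medians of 0.10 at 2500 ppm and 0.07 at 5000 ppm, with none called. Srsf1, a splicing factor, had -0.60 at 2500 ppm, which came from 2500 ppm mouse 3 at 0.49, while the other mice had 1.84 and 1.80 against 2.06, 1.86 and 2.0 in control lungs.

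Of 30 imprinted genes, the class of Meg3 and H19, 27 passed the filter and none was called. Their medians were 0.14 at 2500 ppm and 0.14 at 5000 ppm, with 22 and 20 of 27 above 0, beside medians of 0.03 and 0.05 over all probes. Airn, an imprinted noncoding RNA that silences Igf2r, lay clear of the controls at 2500 ppm, with 1.36, 1.44 and 1.55 against 0.77, 1.15 and 1.13 in control lungs, and overlapped them at 5000 ppm with 0.82, 0.99 and 0.83. Its log2 difference was 0.43 at 2500 ppm (limma adjusted p = 0.434) and -0.13 at 5000 ppm.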

How the data were processed

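RNA of whole lung was extracted with RNeasy and 100 ng of it made into Cy3 cRNA with the Low Input Quick Amp kit, per the labels' protocols. Per the file headers, Agilent Feature Extraction 10.7.3.1 read the scans, and the authors deposited background-subtracted processed signals as intensity on a linear scale, and median spot and background signals. Slide 2 was read with another grid file than slide 1, per the file headers. The authors also deposited a table of log2 values; on every array they matched the log2 processed signal (correlation 1) up to a constant close to that array's 75th percentile. Of the scanner files' headers, slide 1 names mm9 as build and slide 2 names none.

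From the processed signal, control spots were left out, spots of a probe averaged, and log2 set to 0 at each array's 75th percentile. Probes well above background (in 50% or more of their spots) in all 3 mice of 1 diet or more were kept (43154), and every probe was tested by itself. limma 3.58.1 in R 4.3.3 fitted 1 coefficient per diet over 15 arrays, with 10 residual degrees of freedom, and two-sided p-values were adjusted by Benjamini-Hochberg over all kept probes at a threshold of 0.05. The labels call the 3 arrays of a diet biological replicates. The step was tested on simulated data. Correlations used 100000 permutations of all 15 arrays, without regard to diet or slide. A summed marker level is log2 of the summed linear signals of a list's genes, on the same scale. Symbols came from RefSeq accessions (GRCm38.p6 table), probes listed by other identifiers were left unnamed, and the number of arrays limits the precision.

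The members, lists and the rule for naming genes were chosen with earlier results of these data known. The rule names every probe of the members, their neighbouring genes, the 3 genes most like each in pattern, and from each list the 2 genes with the smallest p at 2500 and 5000 ppm, of which the text gives values for some, picked after their values were seen. Alternatives were other background correction, normalization, scale, source, filter, features, blocks, spread settings and samples. Normexp used median spot signals.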

Additional observations from a re-analysis of the deposited data

Results flagged for a closer look

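Neat1 A_65_P09473 stood out because its direction against control differed between doses. All 3 mice at 20 ppm lay above the control mean (mean difference 0.59 on the log2 scale) and all 3 at 500 ppm lay below it (-0.19). In the same way all 3 mice at 2500 ppm lay above it (0.57), again beside -0.19 at 500 ppm. The difference between these doses was not tested. The control mean itself rests on control mouse 1, at 0.23, with the other 2 controls at -1.23 and -1.36. Without control mouse 1 the difference of Neat1 A_65_P09473 at 500 ppm was 0.32 in place of -0.19.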

How the results depend on the processing

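None of the 12 probes was called at any comparison, and this held in 205 of 219 counts (a comparison under a setting), the other 14 falling in 7 of 34 settings. It held in every fit that left out 1 mouse (0 to 0 called at each comparison), and in the fits on the deposited values, on the array median scale, without a filter and with the slide as a random block. On the trend, 1 probe (Platr22) was called with normexp, quantile normalization, a filter over all 15 arrays, empirical Bayes with trend and robust settings, or array weights. With the slide as a fixed block, 1 (Lncpint A_55_P1984259) was called at 2500 ppm and 1 in the F test. Empirical Bayes with trend and robust settings called 1 in the F test. Array weights called 4 at 2500 ppm (Lncpint A_55_P1984259, Fendrr A_55_P2923301, Platr22 and Neat1 A_65_P09473), 1 at 5000 ppm (Platr22), 2 at 5000 against 2500 ppm (Lncpint A_55_P1984259 and Fendrr A_55_P2923301) and 4 in the F test. Without the 4 arrays that stood apart, which leaves 2 controls and 2 mice at 2500 ppm, 2 were called at 2500 ppm (Fendrr A_55_P2923301 and Neat1 A_65_P09473). In the same fit 2 were called at 5000 against 2500 ppm (Lncpint A_55_P1984259 and Fendrr A_55_P2923301). The cause was not tested. Shares of all probes called in these alternative fits are not given here, so the counts cannot be read as a result about these probes. Calls of Lncpint that involve the 2500 ppm mice, and of Platr22 on the trend or in the F test, use the values that chose these genes, so they are counts only and support nothing. Leaving out only 1 pair of those arrays, and fits within 1 slide, were added after the data were seen and called 0. Of 2410 single values under an alternative, 43 moved by more than the spread between mice of a diet, or for the trend by more than a fixed part of it. With the replicate number as a block 0 probes were called. Deviations of like-numbered arrays from their diet means had r from -0.26 to 0.68, over 0.1 in 10 of 30 like-numbered pairs and in 14 of 60 other pairs. Like-numbered pairs had 0.68, 0.34 and 0.26 for control with 20 ppm, where another pair reached 0.45. For 500 with 2500 ppm they had 0.38, 0.28 and 0.48. Deviations from the mean of a few mice depend on one another, so these values cannot decide whether the numbers pair the mice. Signals near background limit Meg3 A_55_P2033407.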
